A study of Homo sapiens with 10 samples.

Results

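Hydrogen sulfide is made from cysteine and then burned in mitochondria, and 6 human genes of these steps, MPST, SQOR, ETHE1, TST, TSTD1 and SUOX, were followed in HEK293T cells grown with different amounts of cysteine. The genes were picked by name for their place in the route, with earlier results of these data known, and are 6 of 78894 Ensembl gene entries in the normalized count table, with symbols from GENCODE 44. HEK293T is an established line derived from human embryonic kidney. The cells spent 24 h without cysteine (cysteine-free, labelled 0X-Cys, 2 libraries), with the usual amount (complete, 1X-Cys, 4 libraries) or with 10 times that amount (excess, 10X-Cys, 4 libraries), and polyadenylated RNA was sequenced. According to the study's methods the medium of every group held methionine, from which cells can make cysteine. The methods describe more than 1 starvation protocol, and in one of them serum treatment differs between cysteine-free and complete medium, so an effect of serum on the comparison of these media was not tested.

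As background, MPST takes sulfur from mercaptopyruvate, a product of cysteine transamination, and passes it on as a persulfide from which sulfide can be released. Sulfide is oxidised at the inner mitochondrial membrane by SQOR, which hands the electrons to ubiquinone and the sulfur to an acceptor such as glutathione. ETHE1, a persulfide dioxygenase, turns glutathione persulfide into sulfite, the rhodanese TST and the small rhodanese-domain protein TSTD1 move sulfur between glutathione persulfide, thiosulfate and other acceptors, and SUOX, a molybdenum enzyme of the intermembrane space, oxidises sulfite to sulfate.

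Promoters are shown for the oxidation genes ETHE1 and SUOX and for SQOR, the entry step, which was scarce in every medium. SUOX mRNA fell in excess cysteine, and so did that of ETHE1, though less firmly. Each run is the 250 bases before the RefSeq start (GRCh38.p14), read 5′ to 3′ on the gene's strand, at chr15:45634779-45635028 (plus) for SQOR, chr19:43527202-43527451 (minus) for ETHE1 and chr12:55997026-55997275 (plus) for SUOX. Capitals mark the GC box GGGCGG or the CCAAT box CCAAT, searched on both strands.
SQOR: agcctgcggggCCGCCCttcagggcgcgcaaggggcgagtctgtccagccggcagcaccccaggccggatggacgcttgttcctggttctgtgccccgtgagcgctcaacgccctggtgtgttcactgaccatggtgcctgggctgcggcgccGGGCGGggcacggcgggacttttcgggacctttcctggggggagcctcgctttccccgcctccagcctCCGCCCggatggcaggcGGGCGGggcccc
ETHE1: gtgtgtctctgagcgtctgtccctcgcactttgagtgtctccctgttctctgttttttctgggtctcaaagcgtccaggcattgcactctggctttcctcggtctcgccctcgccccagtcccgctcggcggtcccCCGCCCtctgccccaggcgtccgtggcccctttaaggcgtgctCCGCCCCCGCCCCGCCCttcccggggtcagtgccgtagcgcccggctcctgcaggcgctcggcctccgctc
SUOX: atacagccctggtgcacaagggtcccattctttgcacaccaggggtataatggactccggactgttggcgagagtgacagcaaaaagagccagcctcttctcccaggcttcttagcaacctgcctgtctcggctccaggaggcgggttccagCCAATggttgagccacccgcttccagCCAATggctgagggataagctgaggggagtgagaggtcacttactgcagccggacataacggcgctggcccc

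Of the 6 genes, 4 were in the RefSeq promoter table (SQOR, ETHE1, TSTD1 and SUOX). SQOR and ETHE1 each held 4 GC box matches, some of which overlap in ETHE1, and TSTD1 held 1, whereas SUOX held none. At least 1 GC box was found in 42.6% of all 35116 promoters of that length. SUOX was the only one of the 4 with CCAAT, in 2 copies, a motif present in 32.01% of all promoters. The ETS core CCGGAAG had 1 match in TSTD1 and was in 8.52% of promoters. None of the 4 windows held the amino acid response element TGATGNAA (3.14% of promoters), the antioxidant response element core TGACNNNGC (10.9%), the E-box CACGTG (6.34%) or the cAMP response element TGACGTCA (1.65%). GC content was 73.2% in SQOR, 68.4% in ETHE1, 62.8% in TSTD1 and 58.8% in SUOX, beside a median of 58.0% over all promoters. The first GENCODE start of SQOR lies 3881 bases upstream of the RefSeq start used here, so its window does not cover that start. For SUOX the first GENCODE start lies 96 bases upstream of the RefSeq start. Its CCAAT matches begin at -98 and -72 from the RefSeq start, so 1 spans the GENCODE start and the other lies downstream of it.

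The libraries held 34836014 to 61654861 reads assigned to genes, as recovered from the normalized counts. The study's methods state a lower average number of reads per sample, and the reason for the difference was not tested. All 5 HEK293T markers examined (VIM, NEFL, NEFM, PAX2 and LHX1) were present in every library. Of 6 markers of other cell types, PTPRC and MYH6 were below the low-value filter, ALB and PECAM1 did not exceed 21.0 and 13.6, and EPCAM and COL1A1 reached 101 and 1002. In complete medium VIM, NEFL and NEFM averaged 28292, 3985 and 15332, while PAX2 (133) and LHX1 (203) lay below COL1A1 (911). Markers of both lists moved, in both directions. Against complete medium without cysteine, PAX2 was higher by 1.26 on the log2 scale and NEFM fell by 0.29. In excess, VIM was higher by 0.31, NEFL fell by 0.35 and COL1A1 fell by 0.49. Between excess and cysteine-free medium, EPCAM was higher by 0.75 in excess, PAX2 fell by 1.28, NEFL fell by 0.31 and NEFM was higher by 0.27. Their part in the results was not tested. The labels call the libraries biological replicates and the methods describe parallel wells, so the p-values measure the spread among these cultures.

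Values below are normalized counts, which are reads divided by a library size factor. These factors do not make library totals equal, so a level is relative, neither a share of a library nor an amount per cell. In bulk RNA, fewer cells expressing a gene and less of its RNA per cell cannot be told apart. Differences are log2 fold changes from limma on log2(normalized count + 1), and a gene was called at an adjusted p (Benjamini-Hochberg over 29045 genes) of 0.01 or less. Both comparisons with complete medium use the same 4 complete libraries.

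Per kilobase of annotated exon in complete medium, the order of mean levels was TST (489 normalized counts per kb), MPST (464), ETHE1 (186), SUOX (118), SQOR (7.37) and TSTD1 (1.98). TST and MPST did not separate, with ranges of 461 to 511 and 415 to 509. Dividing by the canonical transcript instead put MPST first, at 2323 per kb against 816 for TST, because the annotated exons of MPST span 6759 bases and its canonical transcript only 1350. ETHE1 and SUOX did not overlap in complete medium on either length. On the exon scale, 80.4% of 26104 genes with a length lay below TST in complete medium and 10.2% lay below SQOR.

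In cysteine-free against complete medium, 1 of 5 tested genes was called, MPST, beside 15.9% of all genes, and it was lower, beside 8.51% called lower and 7.39% called higher. In excess against complete medium, ETHE1 and SUOX were called, 2 of 5 beside 46.0% of all genes, both lower beside 22.9% called lower and 23.1% called higher. Making library totals equal moved the median of all genes in that comparison by 0.10 on the log2 scale and the share of calls that were higher from 50.3% to 61.9%. In excess against cysteine-free medium 3 of 5 were called beside 48.0%, with MPST higher (24.4% of all genes) and ETHE1 and SUOX lower (23.6%). With so many genes called in both comparisons of excess cysteine, 2 or 3 of 5 is near the background. Groups did not overlap for 2, 3 and 3 of the 5 genes, beside 46.9%, 51.6% and 66.0% of all genes. The median log2 fold change over the 5 was -0.03, -0.18 and -0.12, beside 0.0024, 0.01 and 1.03e-05 over all genes tested. TSTD1, the sixth gene, did not pass the filter of 10 or more in at least 3 libraries.

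MPST (ENSG00000128309, chr22:37019635-37029821, plus strand), the sulfide-forming sulfurtransferase, fell without cysteine. Its normalized counts were 2539.8 and 2459 in the cysteine-free libraries, then 3192, 3107, 2805 and 3439 in complete medium. The excess libraries held 3339, 3505, 3574 and 3681. Both cysteine-free libraries lay below all others, whereas the highest complete library lay above the lowest excess library. The group means were 2499.5 ± 57.0 (SD, n = 2), 3136 ± 262 (n = 4) and 3525 ± 144 (n = 4). Against complete medium the cysteine-free level was 79.9%, a log2 fold change of -0.32 ± 0.07 (SE, limma, adjusted p = 0.00554). That call was lost without either cysteine-free library (adjusted p = 0.0524 without replicate 1 and 0.0895 without replicate 2), without complete replicate 1 (0.0227) or replicate 2 (0.0218), with library totals made equal (0.0114) and with the dependence on base composition and length taken out (0.0128), while the limma value stayed between -0.38 and -0.26. Excess minus complete was 0.17 ± 0.06 (limma, adjusted p = 0.0151), which was not called but became 0.28 (adjusted p = 0.00050) with equal totals, 0.22 (adjusted p = 0.00151) without complete replicate 4 and 0.29 (adjusted p = 0.000165) without the dependence on base composition and length. The direct difference of excess from cysteine-free medium was 0.49 ± 0.05 or 1.41-fold (limma, adjusted p = 2.16e-09), and it was called under every alternative run.

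TST (ENSG00000128311, chr22:37010859-37020183, minus strand), the thiosulfate sulfurtransferase, is a paralog of MPST and lies head to head with it, the 2 genes sharing 6 exon bases on opposite strands. It was not called in any comparison. Its normalized counts were 886.1 and 872.5 without cysteine, 864.5, 959.9, 908.6 and 938.2 in complete medium and 824.9, 802.9, 739.1 and 882.8 in excess. The ranges of all 3 groups overlapped. Cysteine-free minus complete was -0.06 on the log2 scale, with a 95% interval of -0.23 to 0.11, and excess minus complete was -0.18, with an interval of -0.32 to -0.04 (limma, adjusted p = 0.609 and 0.0286). The latter became 0.01 once the dependence on base composition and length was removed. The longest run of identical bases shared by MPST and TST transcripts was 20.

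The ratio of MPST to TST was compared because the genes are neighbours and paralogs. It was 2.84 ± 0.03 (SD, n = 2) without cysteine, 3.42 ± 0.30 (n = 4) in complete medium and 4.35 ± 0.35 (n = 4) in excess. The lowest excess library (4.04) lay above the highest complete library (3.69), and both cysteine-free libraries lay below the lowest complete one (3.08). In 2-sided exact permutation tests the log2 ratio differed by 0.35 between excess and complete medium (p = 0.0286, the smallest 70 arrangements allow), by 0.61 between excess and cysteine-free medium (p = 0.0667, the smallest 15 allow) and by -0.26 between cysteine-free and complete medium (exact p = 0.133). Adjusted over the 3 comparisons the exact permutation p-values were 0.0857, 0.1 and 0.133. With so few libraries the smallest adjusted p possible was 0.0667, so no ratio could have passed 0.05.

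SQOR (ENSG00000137767, chr15:45631148-45691281, plus strand), the quinone oxidoreductase that starts sulfide oxidation, was expressed near the limit of measurement, with 15 to 50 reads per library. Normalized counts were 36.4 and 21.8 without cysteine, 26.3, 18.5, 24.4 and 17.6 in complete medium and 32.1, 30.4, 37.6 and 31.4 in excess. The excess libraries all lay above the complete ones, whereas 1 cysteine-free library lay above the complete range and the other within it. Excess minus complete was 0.59 on the log2 scale with a 95% interval of 0.09 to 1.10 (limma, adjusted p = 0.0437, not called). Cysteine-free minus complete was 0.39, with an interval of -0.39 to 1.16, which spans both directions, and it was 0.03 without cysteine-free replicate 1 and 0.74 without replicate 2. SQOR shares 881 exon bases, 30.0% of its own, with ENSG00000260170 on the same strand. Since reads that touch several genes were discarded per the study's methods, the SQOR count may miss reads from those bases. ENSG00000260170 held 82.9, 97.4 and 109.6 normalized counts on average in the 3 media, more than SQOR itself.

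ETHE1 (ENSG00000105755, chr19:43506719-43527230, minus strand), the persulfide dioxygenase, fell in excess cysteine. Its normalized counts were 280.2 and 298.8 without cysteine and 287.8, 317.5, 312.7 and 263.4 in complete medium. The excess libraries held 222.1, 194.5, 255.2 and 232.0. All 4 lay below every other library, while cysteine-free and complete medium overlapped. Means were 289.5 ± 13.2 (SD, n = 2), 295.3 ± 25.0 (n = 4) and 225.9 ± 25.1 (n = 4). Excess minus complete was -0.39 ± 0.10 (SE, limma, adjusted p = 0.00389), or 76.4% of the complete level, and excess minus cysteine-free was -0.36 ± 0.12 (limma, adjusted p = 0.0094). Neither call was firm. When the dependence on base composition and length was taken out, an alternative added after the data were seen, the limma values became -0.17 (adjusted p = 0.155) and -0.19 (adjusted p = 0.147), and with equal library totals -0.28 for both (adjusted p = 0.0274 and 0.0434). The first was also lost without complete replicate 2 (0.0156), excess replicate 1 (0.0118) or excess replicate 2 (0.0176). The second was also lost with no filter (0.0134), with all groups in 1 fit (0.0184), in edgeR (-0.35, adjusted p = 0.0118) and DESeq2 (-0.35, adjusted p = 0.0211), and without either cysteine-free library or excess replicate 1, 2 or 4 (adjusted p between 0.0129 and 0.0805). Cysteine-free minus complete was -0.03, with an interval of -0.29 to 0.24. ETHE1 shares 238 exon bases (14.97%) with ZNF575 on the opposite strand, and the strand setting of the counting is not given in the sources used here. ZNF575 averaged 118.9 in complete and 88.5 in excess medium, a log2 fold change of -0.41 (limma, adjusted p = 0.0259), and its part in the ETHE1 value was not tested.

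SUOX (ENSG00000139531, chr12:55997180-56006641, plus strand), the sulfite oxidase, fell in excess cysteine, and its 3 groups did not overlap. Normalized counts were 687.9 and 705.6 without cysteine and 617.6, 584.3, 592.9 and 562.9 in complete medium. The excess libraries held 401.2, 346.6, 401.1 and 378.1. The groups ran downward from cysteine-free to complete to excess. Means were 696.8 ± 12.5 (SD, n = 2), 589.4 ± 22.6 (n = 4) and 381.8 ± 25.8 (n = 4). SUOX fell in excess against complete medium to 64.7%, a log2 fold change of -0.63 ± 0.07 (SE, limma, adjusted p = 1.43e-06), and stood at 54.8% of the cysteine-free level, or -0.87 ± 0.08 (limma, adjusted p = 2.95e-09). Both were called under every alternative run, with ranges of -0.65 to -0.52 and -0.90 to -0.78. Cysteine-free minus complete was 0.24, with a 95% interval of 0.06 to 0.43 (limma, adjusted p = 0.0521, not called). SUOX shares no exon bases with another gene of the annotation.

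TSTD1 (ENSG00000215845, chr1:161037631-161038977, minus strand), the small rhodanese-domain protein, had 0 reads in 6 of 10 libraries. The only reads were 5 and 4 in complete replicates 3 and 4, and 2 and 2 in excess replicates 3 and 4. Those are at most 5.08 normalized counts, beside a floor of 3 reads for a gene not detected, and no comparison was made. TSTD1 shares 83 exon bases (6.93%) with ENSG00000270149 on the same strand, which averaged 601 normalized counts.

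**Figure D1:**
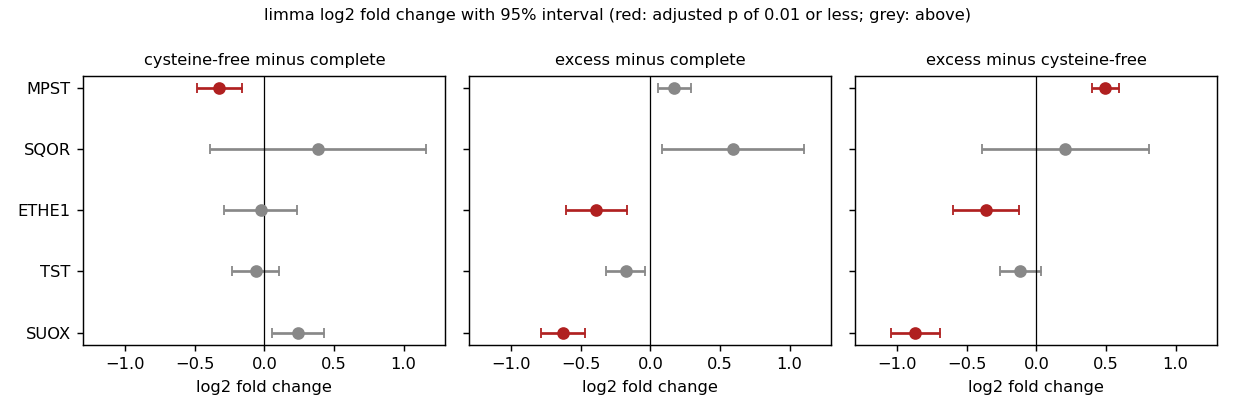
Log2 fold change from limma with its 95% interval for the 5 tested genes in the 3 comparisons, red where the adjusted p is 0.01 or less. SUOX lies at -0.63 and -0.87 in the comparisons of excess cysteine, and the SQOR intervals are the widest.

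Genes around the 6 were read from lists written from general knowledge, with earlier results of these data known. Their counts stand beside 15.9% of all tested genes called without cysteine (7.39% higher, 8.51% lower) and 46.0% called in excess (23.1% higher, 22.9% lower), and their medians beside 0.0024 and 0.01. Among enzymes that form sulfide or persulfides, 7 of 8 passed the filter, and 4 rose and 0 fell without cysteine, while 3 rose and 3 fell in excess, each against complete medium. The median log2 fold changes of the 7 were 0.26 and 0.05. CTH, the cystathionine lyase that makes cysteine and sulfide, averaged 4662, 1595 and 7839 normalized counts in cysteine-free, complete and excess medium. Its limma log2 fold changes against complete medium were 1.55 and 2.30 (adjusted p = 3.94e-08 and 6.13e-15). CBS, the synthase before it, rose by 0.26 without cysteine (limma, adjusted p = 0.00229), and excess minus complete was 0.05 (adjusted p = 0.319). Of the cysteinyl-tRNA synthetases, which can also form persulfides, CARS1 rose by 0.70 and 0.92 and the mitochondrial CARS2 fell by 0.73 in excess.

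Ubiquinone takes the electrons of SQOR. Of 13 genes of its synthesis, 1 rose and 1 fell without cysteine (15.9% of all genes called), and 2 rose and 6 fell in excess (23.1% and 22.9% of all genes), with median log2 fold changes of 0.0041 and -0.18, beside 0.0024 and 0.01 over all genes. COQ3 fell by 0.95 and COQ2 by 0.77 in excess, while COQ10A, a ubiquinone-binding protein, rose by 0.74. COQ5 rose by 0.90 and COQ10B fell by 0.50 without cysteine. The complete libraries spread widely for COQ3 (349 to 660 normalized counts), COQ5 (523 to 957) and COQ10A (446 to 660). Genes of these lists were not put through the alternatives used for the tested sulfide genes.

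SUOX needs the molybdenum cofactor. Of 6 genes of that route, 1 rose and 1 fell without cysteine, and 1 rose and 3 fell in excess, beside 15.9% and 46.0% of all genes called. The medians were -0.12 and -0.24 on the log2 scale, beside 0.0024 and 0.01 over all genes. NFS1, the cysteine desulfurase that supplies sulfur, averaged 1273, 1581 and 590.2 in cysteine-free, complete and excess medium and fell by 0.31 without cysteine and fell by 1.42 in excess. MOCOS, a sulfurase acting on the cofactor of other molybdenum enzymes, rose by 0.31 and 0.71, and GPHN, which inserts molybdenum, fell by 0.42 in excess.

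Among 5 further rhodanese-domain and ETHE1-like proteins, 1 rose without cysteine, and 2 rose and 1 fell in excess. HAGH, a glyoxalase related to ETHE1, rose in both media, by 0.41 without cysteine and by 0.44 in excess. In excess TSTD2 rose by 0.62 while PNKD fell by 0.82. The called shares of all genes were 15.9% and 46.0%. The medians of that list were -0.20 and 0.15 on the log2 scale, beside 0.0024 and 0.01 over all genes. Of 5 acceptors of persulfide sulfur or electrons, 0 rose and 1 fell without cysteine, and 2 rose and 3 fell in excess, beside the same shares of all genes, with medians of -0.12 and -0.33. TXNRD1, the cytosolic thioredoxin reductase, rose by 1.70 in excess, where thioredoxin TXN fell by 0.94 and mitochondrial TXN2 fell by 0.41. Cytochrome c, CYCS, to which SUOX passes its electrons, fell by 0.51 without cysteine and was also lower in excess. Its means were 7211, 10247 and 8133 normalized counts in cysteine-free, complete and excess medium.

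**Figure D2:**
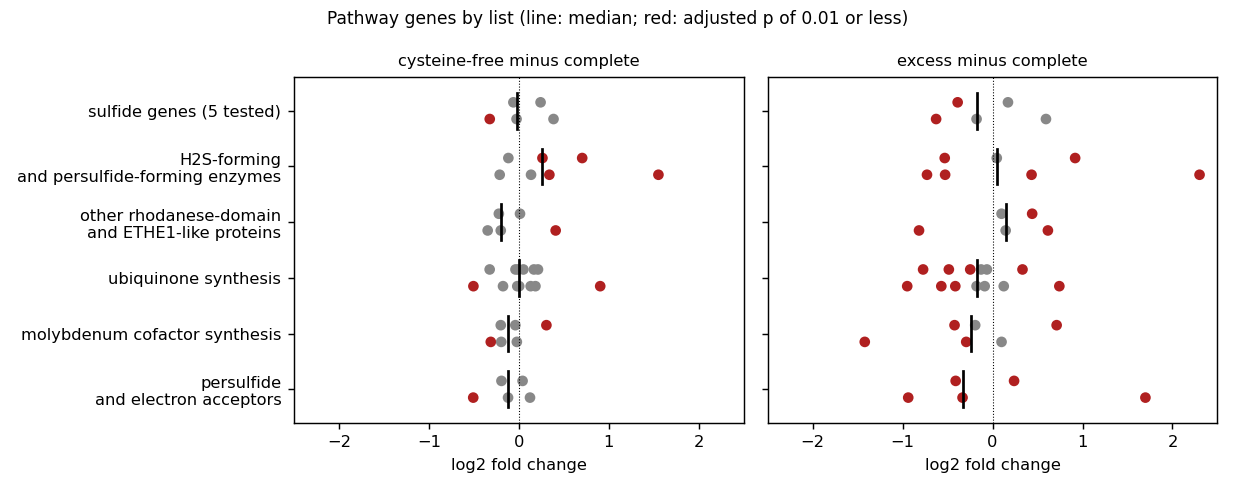
Limma log2 fold change of each tested gene by list, cysteine-free minus complete (left) and excess minus complete (right), red where the adjusted p is 0.01 or less and with a black line at the list median. CTH at 2.30, TXNRD1 at 1.70 and NFS1 at -1.42 lie farthest out in excess medium, beyond SUOX at -0.63.

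The genes whose pattern over the 10 libraries was most like each member were found by Pearson correlation of log2 values among about 14550 genes with symbols and a mean of 100 or more. The 10 libraries share 3 media and their normalization, so the coefficients only describe. SUOX was closest to ACY1, an aminoacylase (r = 0.997), and to the readthrough gene ABHD14A-ACY1 (0.996), which shares sequence with it. ACY1 averaged 1142, 868.7 and 444.7 in cysteine-free, complete and excess medium. MPST was closest to MTSS2 (0.986) and C10orf88 (0.982), and ETHE1 to LRP5 (0.969) and YBX1P10 (0.954). The closest genes of TST were ATXN7L3-AS1 (0.942) and LSP1P5 (0.897), and those of SQOR were SATB1 (0.931) and EIF4BP7 (0.930). Among the members themselves ETHE1 and SUOX varied together (0.866), whereas MPST and SUOX ran in opposite directions (-0.83).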

How the data were processed

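Polyadenylated RNA of 10 HEK293T cultures was sequenced from a directional kit. According to the study's methods and the submitters' processing notes, reads were aligned to GRCh38 with STAR 2.7.10b and counted per Ensembl gene. The methods name featureCounts and the notes HTSeq, and the Ensembl release and strand setting are not given in the sources used here. Reads over several genes were discarded. Groups and replicate numbers follow the labels, which differ from the replicate number in a legend of the study. The deposited values are a signal, counts that the authors divided by DESeq2 size factors, and every value gave a whole read within 0.01 when the factor was removed. Depth was 34836014 to 61654861 reads per library, and floors cover counting error only, whereas limma intervals reflect the spread among libraries.

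The 6 genes and all gene lists were chosen with earlier results of these data known. Genes with 10 or more in at least 3 of 10 libraries were kept (29045), and limma 3.58.1 in R 4.3.3 (trend = TRUE, 2-sided) was run on log2(normalized count + 1) with only the 2 groups compared, called at a Benjamini-Hochberg adjusted p of 0.01. Ratios were tested by exact permutation. Named genes were the 6, genes sharing exon bases with them or nearest to them, up to 3 called genes of each list with the largest change, CBS and CTH, and the 2 most correlated genes of each member. Tested on simulated data with 200 of 29045 genes changed by 1 on the log2 scale, the fit called 196 (cysteine-free against complete), 199 (excess against complete) and 196 (excess against cysteine-free), with 10, 5 and 3 unchanged genes. The simulation held far fewer changed genes than were called here and no trend with base composition or length. It cannot show how often the fit errs under those conditions. Alternatives were equal totals, pseudocounts of 0.5 and 10, no filter and a minimum of 50, edgeR 4.0.16, DESeq2 1.42.0, all groups in 1 fit, blocking on replicate number, each library left out, and, added after the data were seen, removal of a GC and length trend. Replicates of a group differed by more than sampling noise (chi-square per degree of freedom of 3.53 to 14.7). Promoters came from RefSeq tables.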

Additional observations from a re-analysis of the deposited data

Results flagged for a closer look

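In none of the 12 groups of 4 libraries examined, which were the 5 tested genes and the ratio of MPST to TST in complete and in excess medium, did the highest or lowest library stand apart from the other libraries by more than Dixon's critical gap of 0.829 of the group's range.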

How the results depend on the processing

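Over 15 member results and 247 alternatives, 222 kept their direction and side of the threshold or stayed uncalled, 22 lost the call, 3 gained it and 0 called values reversed. For MPST in cysteine-free against complete medium (-0.32), equal totals gave -0.30 and removal of the GC and length trend -0.26, both uncalled, and single libraries left out gave -0.38 to -0.28. For MPST in excess against complete medium (0.17), equal totals gave 0.28 and the trend removal 0.29, both of them calls, and single libraries left out gave 0.12 to 0.22. For ETHE1 in excess against complete medium (-0.39), equal totals gave -0.28, the trend removal -0.17, and leaving out a library -0.45 to -0.32. For ETHE1 in excess against cysteine-free medium (-0.36), equal totals gave -0.28, no filter -0.36, all groups in 1 fit -0.36, edgeR -0.35, DESeq2 -0.35, the trend removal -0.19, and leaving out a library -0.42 to -0.29. The cause was not tested. Among uncalled values, TST in excess against complete medium turned from -0.18 to 0.01 with the trend removed and in excess against cysteine-free medium from -0.12 to 0.04, ETHE1 in cysteine-free against complete medium ran from -0.08 to 0.02, and SQOR in excess against cysteine-free medium from -0.15 to 0.57. The number of genes called in cysteine-free against complete medium (4618) ran from 978 to 6300 when a library was left out, with 1198 and 978 when 1 cysteine-free library remained, assumed to vary like the complete ones, and 2968 and 2795 without complete replicates 1 and 2. Equal totals moved the median of all genes by 0.10 in excess against complete medium and the share of calls that were higher from 50.3% to 61.9%. The replicate block gave 6532, 13392 and 12393 called genes in the 3 comparisons and changed no member's call (SUOX -0.63 in excess against complete medium), and same-numbered libraries did not vary together (correlations of -0.12 to 0.10), so the numbers were not taken as pairs. Depth limits SQOR, where 15 reads, if independent, carry a counting error of 25.8%, and TSTD1.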

Other observations

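The nearest neighbour of MPST outside TST, the long noncoding RNA ENSG00000287236, lies 3302 bases past the end of MPST on the same strand, at chr22:37033124-37035513. It held 1 read in each cysteine-free library, 5, 7, 2 and 8 reads in complete medium and 35, 19, 29 and 42 reads in excess. The excess libraries lay above all others. Only they reached the 10 normalized counts that the filter asks of at least 3 libraries. The gene thus entered the tests only through the group where it was high. Its excess minus complete difference of 2.02 ± 0.41 on the log2 scale (SE, limma) therefore only describes.

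RAB5B, a small GTPase of early endosomes, ends 496 bases before the start of SUOX on the same strand. It averaged 3177 ± 131 (SD, n = 2) without cysteine, 2488 ± 418 (n = 4) in complete medium and 3209.9 ± 119.8 (n = 4) in excess. RAB5B rose in excess against complete medium by 0.38 (limma, adjusted p = 0.000895), where SUOX fell, and cysteine-free minus complete was 0.37 (limma, adjusted p = 0.0268, not called). The RAB5B libraries ran from 2081 to 3030 in complete medium and from 3114 to 3385 in excess. USF1, a transcription factor gene 273 bases from TSTD1, fell by 0.16 in excess against complete medium (limma, adjusted p = 0.00723). In that comparison 46.0% of all genes were called, and these neighbours were not put through the alternatives.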
